A study of Homo sapiens with 2 samples.

Results

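The BCL2 family and its associated regulators of apoptosis were followed as 10 genes matched by symbol, of 36601 genes listed in the files. They are the pro-survival genes MCL1 and BCL2L1, the pore-forming effector BAK1, the BH3-only genes BAD, BID and BCL2L11, the BCL2-like gene BCL2L12, the caspase inhibitor XIAP, the calcium-binding adaptor PDCD6 and the outer mitochondrial membrane protein TSPO. All were measured in A549, an established line of human lung adenocarcinoma labelled as epithelial. The squashed library held cells that had been confined under micropillars of polydimethylsiloxane, and the control library held cells kept in 2D culture without confinement. Before capture, cells in each arm had recovered for 48 h and had been sorted live for loss of a chromosome reporter, a loss seen in roughly 1 of 500 cells, so reporter loss is shared by both arms. The labels do not name the chromosome that carries the reporter. Each group is 1 library, so every value below compares 2 libraries and has no check by replicates.

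BCL2 proteins decide whether the outer mitochondrial membrane is opened. The effectors BAK and BAX form pores in it, the pro-survival proteins MCL1 and BCL-XL (the main product of BCL2L1) hold them in check, and BH3-only proteins such as BID, BIM (BCL2L11) and BAD either engage the effectors or occupy the pro-survival proteins. Once cytochrome c has left the mitochondria, caspases are activated through the apoptosome, and XIAP binds and inhibits caspases at that last step. Lung carcinoma cells commonly rely on MCL1 and BCL-XL for survival.

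RNA was counted by unique molecular identifiers (UMIs), each marking 1 captured molecule. Cells with 1000 or more UMIs, 500 or more genes and no more than 20% mitochondrial UMIs were kept, which left 1930 squashed cells (61.6% of 3132 barcodes) and 1906 control cells (74.0% of 2574 barcodes), with medians of 9331 and 12459 UMIs per cell. Kept cells held 23328323 UMIs in the squashed and 27482392 UMIs in the control library. Levels are CPM, the UMIs of a gene per 1000000 UMIs summed over a library, and ratios are log2 of squashed over control. Ranges in parentheses are 95% intervals that cover counting error only. Doublet calls, 16 in each library, were left in. Cell barcodes found in both libraries numbered 4, of which 2 passed the filter in both. Of the 5 epithelial markers, KRT8 had 1169 CPM in squashed and 796 CPM in control cells and KRT18 had 557 and 1691 CPM. The others were low, with 2.79 and 2.44 CPM for KRT19 and 4.12 and 7.86 CPM for CDH1. EPCAM had 0 UMIs in the squashed and 5 UMIs in the control library. The defining markers PTPRC, CD3E, CDH5 and KDR had 0 UMIs in both libraries. The 6 fibroblast markers together reached 6.39 CPM in squashed cells, against 7.82 CPM in control cells, the 4 endothelial markers 0.0429 and 0.0728 CPM, and the 5 immune markers 2.14 and 2.87 CPM.

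The 10 genes fell into a group that was much lower in the squashed library and a group that was close between the libraries. TSPO, BAD, PDCD6 and BID were at least 2-fold lower in the squashed library and BCL2L12 was at least 1.5-fold lower. MCL1, BCL2L1, BAK1, BCL2L11 and XIAP lay within 1.5-fold. By fold size alone, with no test, 5 of 10 thus lay 1.5-fold or more lower and 0 lay that far higher. For comparison, 4307 genes reached 20 CPM in one library or both; 12.4% of them were 1.5-fold or more lower and 3.48% as much higher. At 2-fold the shares were 5.11% lower and 1.09% higher. A floor of 20 CPM was passed by 8 of the 10 genes. BAD, PDCD6, BCL2L12 and MCL1 passed it only through the control library, so the count over all 10 is the one to read. All 10 reached 5 CPM, where 14.6% of 8680 genes lay 1.5-fold or more lower and 3.18% as much higher. The median log2 ratio over the 10 genes was -0.57, beside -0.18 for those 8680 genes.

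**Figure D1:**
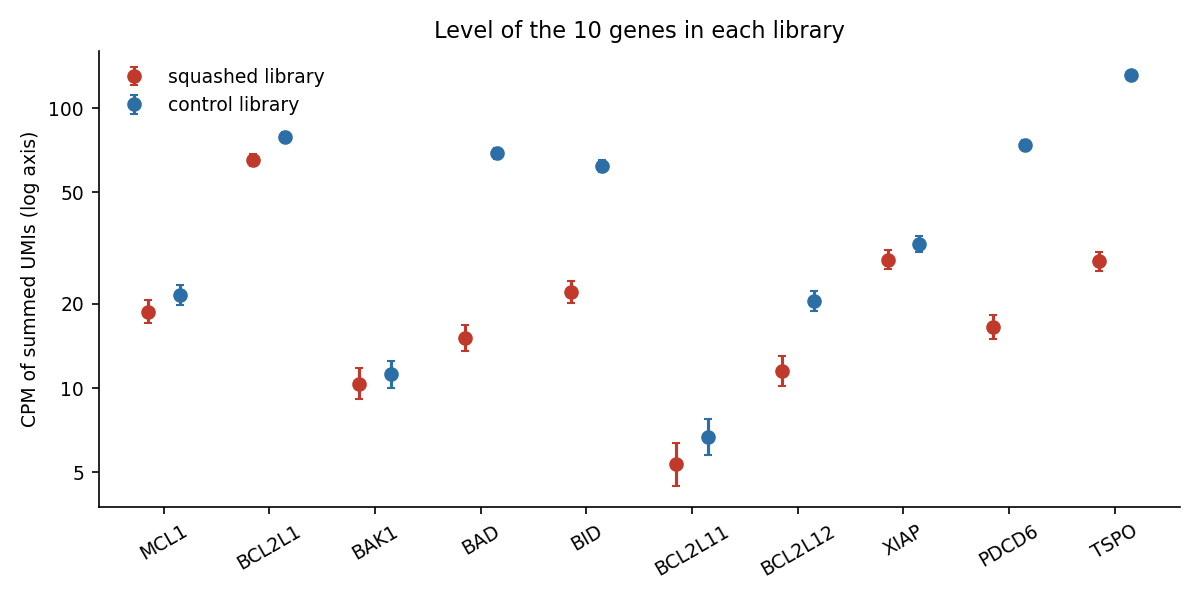
Level of each of the 10 genes in the squashed (red, left) and control (blue, right) library, in CPM of summed UMIs on a log axis, with 95% Poisson intervals for counting error. TSPO, BAD, PDCD6 and BID stand far apart, at 28.3 against 131 CPM for TSPO, while XIAP, at 28.8 against 32.7 CPM, and BAK1 lie close together.

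Of the pro-survival genes, MCL1 encodes a short-lived protein and stood at 18.8 CPM (17.1 to 20.6) in squashed cells, against 21.5 CPM (19.8 to 23.3) in control cells. Its log2 ratio was -0.20 (-0.38 to -0.02). BCL2L1 stood at 65.3 CPM (62.1 to 68.7) in squashed cells, against 79.2 CPM (75.9 to 82.6) in control cells, a ratio of -0.28 (-0.37 to -0.18). Relative to the median of all measured genes, which was -0.14, MCL1 lay 0.06 lower and BCL2L1 0.14 lower on the log2 scale. Both genes were slightly lower in the squashed library and neither reached 1.5-fold. The direction of both was reversed under a stricter cell filter (at most 10% mitochondrial UMIs, at least 2000 UMIs and 1000 genes), with ratios of 0.23 for MCL1 and 0.14 for BCL2L1.

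The effector gene BAK1 had few UMIs and was close between the libraries, with 242 UMIs or 10.4 CPM (9.11 to 11.8) in the squashed and 308 UMIs or 11.2 CPM (9.99 to 12.5) in the control library. Its ratio of -0.11 had an interval that spans 0 (-0.36 to 0.14), and it was at 0.04 under TMM scaling (a trimmed mean of gene ratios), which put the median of all measured genes at 0.03.

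The 3 BH3-only genes were unlike each other. BAD, whose protein binds BCL-XL when dephosphorylated, stood at 15.1 CPM (13.6 to 16.8) in squashed cells, against 68.99 CPM (65.9 to 72.2) in control cells. That is 4.57-fold lower (log2 ratio -2.19, -2.36 to -2.03). BID, which is cleaved by caspase-8 and carries death receptor signals to the mitochondria, stood at 22.1 CPM (20.2 to 24.1) in squashed cells, against 62.3 CPM (59.3 to 65.3) in control cells. BID was 2.82-fold lower (-1.49, -1.64 to -1.35). BCL2L11 had the fewest UMIs of the 10, with 125 UMIs or 5.36 CPM (4.46 to 6.38) in the squashed and 184 UMIs or 6.70 CPM (5.76 to 7.74) in the control library. Its ratio was -0.32 with an interval from -0.66 to 0.01, so a difference in BCL2L11 was not detectable at this depth, and it was at 0.63 with the stricter cell filter. Summed, these 3 BH3-only genes gave 42.5 CPM in squashed cells, against 138 CPM in control cells (-1.70, -1.80 to -1.60). BAD and BID made up most of both sums. The 8 other BH3-only and BNIP genes followed below summed to 158 CPM in squashed cells, against 185.5 CPM in control cells (-0.24). The pro-survival pair summed to 84.1 CPM in squashed cells, against 100.7 CPM in control cells (-0.26, -0.34 to -0.18).

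BCL2L12, a BCL2-like gene whose product was described as an inhibitor of caspases in glioma, stood at 11.5 CPM (10.2 to 13.0) in squashed cells, against 20.5 CPM (18.9 to 22.3) in control cells, 1.78-fold lower (-0.83, -1.05 to -0.62). XIAP stood at 28.8 CPM (26.6 to 31.0) in squashed cells, against 32.7 CPM (30.6 to 34.9) in control cells, a ratio of -0.18 (-0.33 to -0.04). XIAP was therefore within 0.05 of the median of all measured genes on the log2 scale, and it was at 0.32 with the stricter cell filter and 0.14 in cells thinned to 2000 UMIs.

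PDCD6, also called ALG-2, is a calcium-binding adaptor of the secretory and endosomal membranes that was first described in cell death. It stood at 16.5 CPM (14.9 to 18.3) in squashed cells, against 73.9 CPM (70.7 to 77.2) in control cells, 4.46-fold lower (-2.16, -2.32 to -2.001). TSPO, which binds cholesterol and drug ligands at the outer mitochondrial membrane, had the lowest ratio of the 10. It stood at 28.3 CPM (26.2 to 30.6) in squashed cells, against 131 CPM (127 to 135) in control cells, 4.62-fold lower (-2.21, -2.33 to -2.09). The intervals of the ratios of TSPO, BAD and PDCD6 overlap each other, and that of BID lies apart from all of them.

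The promoters of BAD, PDCD6 and TSPO are shown because these genes shared the same size of difference. Each line gives the 250 bases before the transcription start from RefSeq (GRCh38.p14), 5′ to 3′ on the gene's strand, at the annotated start nearest to the gene's 5′ end. Capitals mark every match, on either strand, to a motif, and overlapping matches run together. The GC box was searched as GGGCGG and the CCAAT box by its own letters. The ETS core was searched as CCGGAAG and the E-box as CACGTG. The cyclic AMP response element, as TGACGTCA, and the core of the NRF1 motif were searched as well. BAD lies at chr11:64284705-64284954 on the minus strand, PDCD6 at chr5:271396-271645 on the plus strand and TSPO at chr22:43151309-43151558 on the plus strand.
BAD: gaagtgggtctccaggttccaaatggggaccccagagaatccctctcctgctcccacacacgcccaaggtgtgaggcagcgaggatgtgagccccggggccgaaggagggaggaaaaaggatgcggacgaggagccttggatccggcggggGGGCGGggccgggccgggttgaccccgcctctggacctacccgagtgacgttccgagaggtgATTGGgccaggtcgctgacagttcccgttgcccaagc
PDCD6: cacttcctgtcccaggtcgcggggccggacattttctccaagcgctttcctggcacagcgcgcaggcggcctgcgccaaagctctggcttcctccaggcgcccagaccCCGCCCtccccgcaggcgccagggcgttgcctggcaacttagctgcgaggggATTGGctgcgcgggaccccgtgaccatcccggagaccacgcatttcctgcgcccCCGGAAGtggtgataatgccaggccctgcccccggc
TSPO: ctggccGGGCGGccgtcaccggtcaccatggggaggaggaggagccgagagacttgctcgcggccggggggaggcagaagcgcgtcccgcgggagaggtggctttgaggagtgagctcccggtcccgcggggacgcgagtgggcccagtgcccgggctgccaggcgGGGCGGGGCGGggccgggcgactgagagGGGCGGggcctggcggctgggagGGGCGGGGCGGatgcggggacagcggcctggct
BAD holds 1 GC box and 1 CCAAT match, PDCD6 holds 1 of each and 1 ETS core, and TSPO holds 6 GC boxes and none of the other motifs. Of 35116 promoters in the RefSeq table, 42.6% hold a GC box, 32.01% CCAAT, 8.52% the ETS core, 6.34% the E-box, 1.65% the cyclic AMP element and 1.03% the NRF1 core. The GC content of the 250 bases was 66.4% for BAD, 69.6% for PDCD6 and 78.4% for TSPO, beside a median of 58.0% over the table. A promoter was found there for 9 of the 10 genes. The GC box was also present in genes that were close between the libraries, with 2 matches for BAK1, 3 for BCL2L11 and 1 for XIAP but 0 for BCL2L1. It was absent at the searched start of BID and BCL2L12, which were lower. Only 1 start per gene was searched, though the RefSeq table lists 5 for BID and 2 for BCL2L12. CCAAT had 1 match each in the close genes BAK1 and BCL2L11, and 0 in BCL2L1, XIAP, BID and BCL2L12.

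The genes lie on 9 chromosomes. For the 5 lower genes the median ratio of the measured genes within 1000000 bases was closer to 0 than their own. Of the 5 close genes, BCL2L1 had 4 such neighbours with a median of -0.32, MCL1 14 with -0.09, BAK1 13 with -0.11, BCL2L11 3 with 0.23 and XIAP 2 with 0.07. In GRCh38 coordinates TSPO (ENSG00000100300) spans chromosome 22 from 43151547 to 43163242, and BID (ENSG00000015475) spans the same chromosome from 17734138 to 17774770. The median ratio of the 75 other measured genes of chromosome 22 was -0.15. Of 19 neighbours of BAD 5 and of 23 neighbours of BCL2L12 5 were 1.5-fold or more lower, beside 12.4% of all measured genes. For PDCD6 it was 2 of 2 neighbours and for BID 0 of 2. Within 1000000 bases of TSPO, 5 measured genes had a median of 0.08, and 0 of them were that much lower. BAD (ENSG00000002330) spans chromosome 11 from 64269830 to 64284704, and the 19 measured genes within 1000000 bases had a median of -0.15, between -1.08 and 1.34. PDCD6 (ENSG00000249915) spans chromosome 5 from 271621 to 314974. Its neighbours SDHA, a subunit of succinate dehydrogenase, and TRIP13, an ATPase of the spindle checkpoint, were the measured genes in that distance, at -0.91 (-1.04 to -0.78) and -0.60 (-0.79 to -0.41), while the 196 other measured genes of chromosome 5 had a median of -0.11.

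Overlapping genes limit how firmly some reads can be assigned, as the strand setting of the counting is not stated. BAD overlaps GPR137 on the opposite strand, which had 7.20 CPM in squashed cells, against 15.5 CPM in control cells (-1.10, -1.37 to -0.85). BCL2L12 overlaps IRF3, the interferon regulatory factor, on the opposite strand, at 45.7 CPM in squashed cells, against 54.0 CPM in control cells (-0.24, -0.36 to -0.13). BCL2L11 overlaps the non-coding MIR4435-2HG on the opposite strand, at 38.8 CPM in squashed cells, against 33.1 CPM in control cells (0.23, 0.09 to 0.36). PDCD6 shares its strand with the read-through gene PDCD6-AHRR, which the files do not count separately.

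Transcript composition differed among the genes, and over all measured genes the ratio ran with it. BAD has a canonical transcript of 929 nt with 65.8% GC, and the 40 measured genes over 65% GC had a median log2 ratio of -0.63, 52.5% of them being at least 1.5-fold lower. TSPO has 836 nt and 64.7% GC and BCL2L12 1064 nt and 61.2% GC. The 415 measured genes of over 800 to 2000 nt and over 55 to 65% GC had a median of -0.19, and 25.1% were at least 1.5-fold lower. PDCD6 has 1110 nt and 50.5% GC, and of 438 measured genes of over 800 to 2000 nt and over 45 to 55% GC 10.7% were at least 1.5-fold lower, with a median of -0.12. BID has 2177 nt and 48.0% GC, and in its class of 831 genes 10.5% were at least 1.5-fold lower, with a median of -0.15. BAD thus lies in the GC class with the lowest median. TSPO and BCL2L12 lie in a class below it in GC content, whose median of -0.19 was near the -0.14 of all measured genes. The share of 25.1% in that class was above the 12.4% of all measured genes. PDCD6 and BID lie in neither class. The part that GC content and length have in these ratios was not tested.

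In cells thinned to 2000 UMIs each, TSPO was detected in 5.22% of 1782 squashed cells (4.23 to 6.36) and in 25.2% of 1825 control cells, and without thinning in 26.4% and 75.3%. BAD was detected in 2.86% of squashed (2.14 to 3.75) and 13.97% of control cells, and without thinning in 15.6% and 55.4%. PDCD6 was detected in 2.81% of squashed and 13.0% of control cells, and without thinning in 17.2% and 56.2%. BID was detected in 3.93% of squashed and 11.8% of control cells, and without thinning in 20.8% and 52.1%. With so few UMIs of these genes captured per cell, the shares at 2000 UMIs follow largely from the levels. They cannot tell fewer cells with the RNA from less of it per cell.

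BCL2L1 was detected at 2000 UMIs in 9.32% of squashed (8.01 to 10.8) and 11.5% of control cells, MCL1 in 2.69% and 3.397%, and XIAP in 4.66% and 4.27%. BCL2L11, at 0.730% of squashed (0.389 to 1.24) and 1.15% of control cells, lay near the share of COL1A1, a fibroblast gene that A549 cells should hardly use, at 0.786% and 0.822%. The 95% interval of its squashed share holds that of COL1A1. Of the 15 markers of other cell types COL1A1 had the highest share in both libraries. At least 1 of the 10 genes was found in 29.6% of squashed (27.5 to 31.8) and 63.0% of control cells at that depth, and in 69.8% and 95.02% without thinning. The amount of free RNA was not estimated.

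Cells were then grouped into 4 states by genes other than the 10 and their related lists. State 0 was led by PIMREG, MTRNR2L8, PLK1 and CDC20, of which PLK1 and CDC20 act in mitosis, and held 387 squashed and 745 control cells. State 1 was led by SH3BGRL, HIST1H1C, MAP1B and NPC2 and held 651 squashed and 321 control cells, with medians of 1283 and 1403 genes per cell. State 2 was led by the mitotic genes CDK1, KIF14, ASPM and CENPF and held 451 squashed and 338 control cells. State 3 was led by NEAT1, FTX, CACNG8 and KCNQ1OT1, of which all but CACNG8 are nuclear non-coding RNAs. It held 293 squashed and 421 control cells. The nuclear RNAs NEAT1, MALAT1 and KCNQ1OT1 together ran from 356 CPM in squashed and 294 CPM in control cells of state 1 to 30359 CPM in squashed and 28269 CPM in control cells of state 3.

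BAD, PDCD6 and TSPO were lower in the squashed library in every state. BAD lay between -2.26 in state 0 and -2.01 in state 2, PDCD6 between -2.20 in state 0 and -1.98 in state 3, and TSPO between -2.56 in state 1 and -2.03 in state 0. In no state did the intervals of the squashed and control levels of these genes overlap. The states divide the same libraries and are not replicates. How many of all genes were separated in this way was not counted. The highest squashed level of BAD, 17.1 CPM in state 0, lay under its lowest control level, 47.5 CPM in state 1. The same held for TSPO, with a highest squashed level of 31.8 CPM and a lowest control level of 103 CPM. It also held for PDCD6, at 20.5 and 26.3 CPM, though the control level of 26.3 CPM in state 1 was far under the 80.5 to 82.2 CPM of the other states. BID was lower in each state as well, but unevenly: its ratio was -1.93 (-2.34 to -1.55) in state 0 and -1.07 (-1.33 to -0.82) in state 3, intervals that do not overlap.

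**Figure D2:**
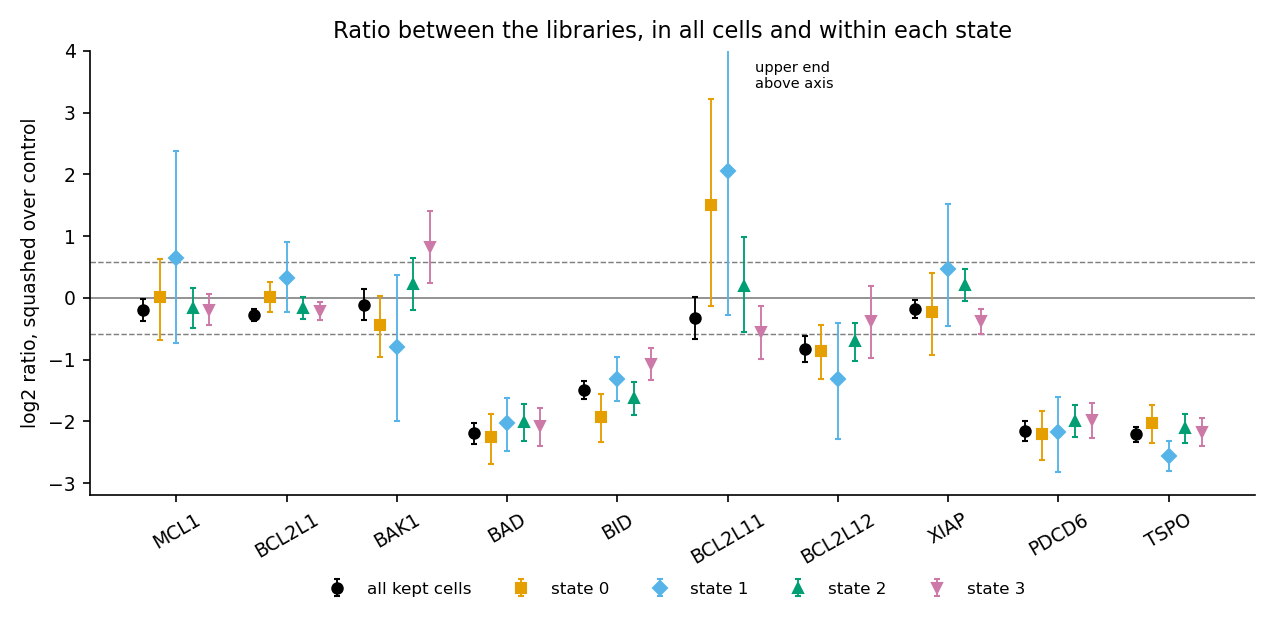
Log2 ratio of squashed over control for each gene in all kept cells (black) and within states 0 to 3 (colours), with 95% intervals for counting error; dashed lines mark 1.5-fold, and the upper end of the interval of BCL2L11 in state 1 lies above the axis. BAD, PDCD6 and TSPO sit near -2 in every state, while MCL1, BCL2L1 and XIAP lie around 0.

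MCL1, BCL2L1, BCL2L11 and XIAP differed far more between states than between libraries. MCL1 had 34.2 CPM in squashed and 39.1 CPM in control cells of state 3, against 2.71 and 1.65 CPM in those of state 1. XIAP had 50.9 CPM in squashed and 66.2 CPM in control cells of state 3, and 5.42 and 3.84 CPM in state 1. BCL2L1 had 105 CPM in squashed and 122 CPM in control cells of state 3, and 14.5 and 11.5 CPM in state 1. These 4 genes were highest in state 3 and lowest in state 1 in both libraries, as were the nuclear RNAs above. State 3 also had the highest medians of mitochondrial share, 11.9% in squashed and 13.8% in control cells, and of depth, 20933 and 20235 UMIs. The part of these quantities in the levels was not tested. BCL2L11 followed the same order at its ends, with 11.1 CPM in squashed and 16.4 CPM in control cells of state 3, but its control level in state 1 rests on 1 UMI. By contrast, the highest level of BAD over the states was 1.48-fold its lowest in the squashed and 1.74-fold in the control library.

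BCL2L12 and BAK1 were high in other states. BCL2L12 had 17.1 and 19.5 CPM in squashed cells of states 0 and 2 and 31.2 and 31.8 CPM in control cells of those states, which were led by mitotic genes. In state 3 it had 6.20 CPM in squashed and 8.08 CPM in control cells, where its ratio of -0.37 had an interval that spans 0 (-0.98 to 0.20). BAK1 had a ratio of -0.44 (-0.95 to 0.03) in state 0 and of 0.82 (0.25 to 1.40) in state 3, where it stood at 9.38 CPM in squashed and 5.31 CPM in control cells. BCL2L11 was at -0.55 (-0.99 to -0.14) in state 3 and between 0.19 and 2.06 in the other states, where each interval spans 0. The ratios of BAK1 and BCL2L11 over all cells thus cover states on either side of 0.

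**Figure D3:**
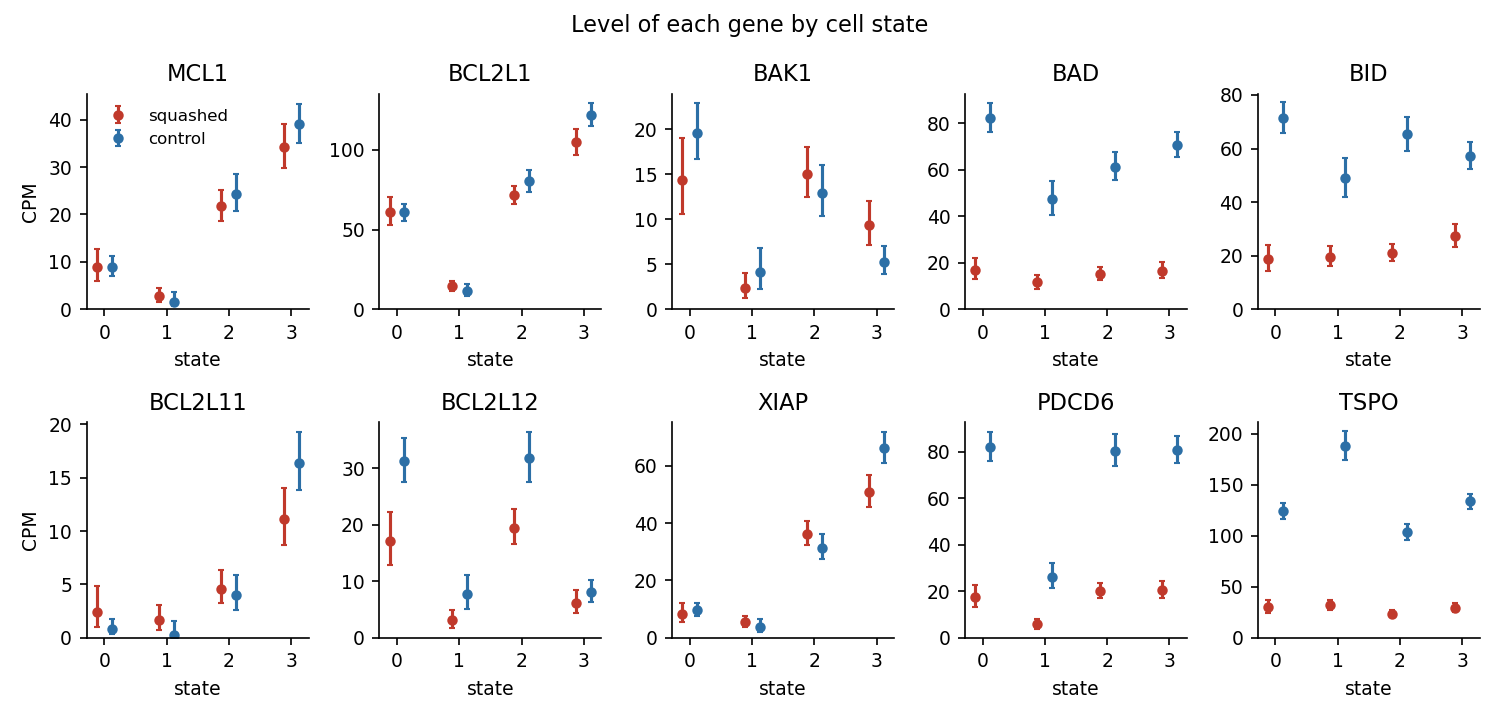
Level in CPM of each gene in the 4 cell states of the squashed (red, left) and control (blue, right) library, with 95% Poisson intervals; each axis starts at 0. The libraries are separated in every state for BAD, BID, PDCD6 and TSPO, while MCL1, BCL2L1, BCL2L11 and XIAP climb in both libraries to their highest level in state 3.

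The genes whose levels ran most like those of BAD over the 8 sums of state and library were SBDS (r = 0.993), a ribosome maturation factor, JOSD2 (0.992), a deubiquitinase, and RAB34 (0.987), a small GTPase, of 4306 compared. Each was lower in the squashed library, at -1.27, -2.41 and -1.17. BAD differed more between the libraries than between states, so genes picked for running like it had to share that direction. Most like MCL1 were GPATCH2L (0.998), ASAP1 (0.997) and NKTR (0.997), whose ratios were -0.21, -0.06 and -0.36. The 8 points share 2 libraries and their depths, so these correlations are descriptions.

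The cell filter removes barcodes rich in mitochondrial RNA, so levels were also followed over that share, here as CPM of nuclear-gene UMIs alone. XIAP stood at 11.2 CPM in squashed and 11.3 CPM in control barcodes with up to 5% mitochondrial UMIs, at 28.7 and 25.5 CPM over 5 to 10%, at 45.1 and 63.9 CPM over 10 to 20%, and at 100.9 and 93.0 CPM over 20%. BCL2L11 stood at 2.24 CPM in squashed and 1.55 CPM in control barcodes of the lowest class, at 4.51 and 3.86 CPM over 5 to 10%, at 8.99 and 14.7 CPM over 10 to 20%, and at 26.1 and 25.8 CPM over 20%. Over 10 to 20% the intervals of the libraries did not overlap for XIAP, BCL2L11, MCL1 or BCL2L1. XIAP had 40.8 to 49.7 in squashed and 59.0 to 69.1 in control barcodes, BCL2L11 7.14 to 11.2 and 12.4 to 17.3. MCL1 had 24.3 to 31.3 and 35.7 to 43.6, and BCL2L1 74.1 to 85.9 and 120 to 134. In the other classes the intervals of XIAP and BCL2L11 overlapped. The share of all genes with such a gap was not computed. MCL1 stood at 13.2 CPM in squashed and 11.4 CPM in control barcodes of the lowest class, at 27.6 and 39.5 CPM over 10 to 20%, and at 76.2 and 42.1 CPM over 20%. BCL2L1 lay between 63.9 and 79.8 CPM over these classes in the squashed library and climbed in the control library, with 68.7 CPM in squashed and 57.7 CPM in control barcodes of the lowest class and 70.9 CPM (58.0 to 85.7) and 145 CPM (127 to 165) over 20%. A test of that difference is not possible with 1 library each.

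For TSPO, BAD, PDCD6 and BID the squashed interval lay under the control interval in every class of mitochondrial share. How many of all genes did so was not counted, and the classes divide the same 2 libraries. TSPO lay between 28.4 and 35.4 CPM in squashed and between 136 and 154 CPM in control barcodes over the 4 classes. BAD stood at 16.9 CPM in squashed and 83.0 CPM in control barcodes of the lowest class and at 11.4 and 55.3 CPM over 20%. BID stood at 18.5 CPM in squashed and 72.7 CPM in control barcodes of the lowest class and at 32.1 and 60.9 CPM over 20%, so its gap was smallest there. The classes over 20% held 519 squashed and 270 control barcodes, with medians of 4146 and 6871 UMIs.

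**Figure D4:**
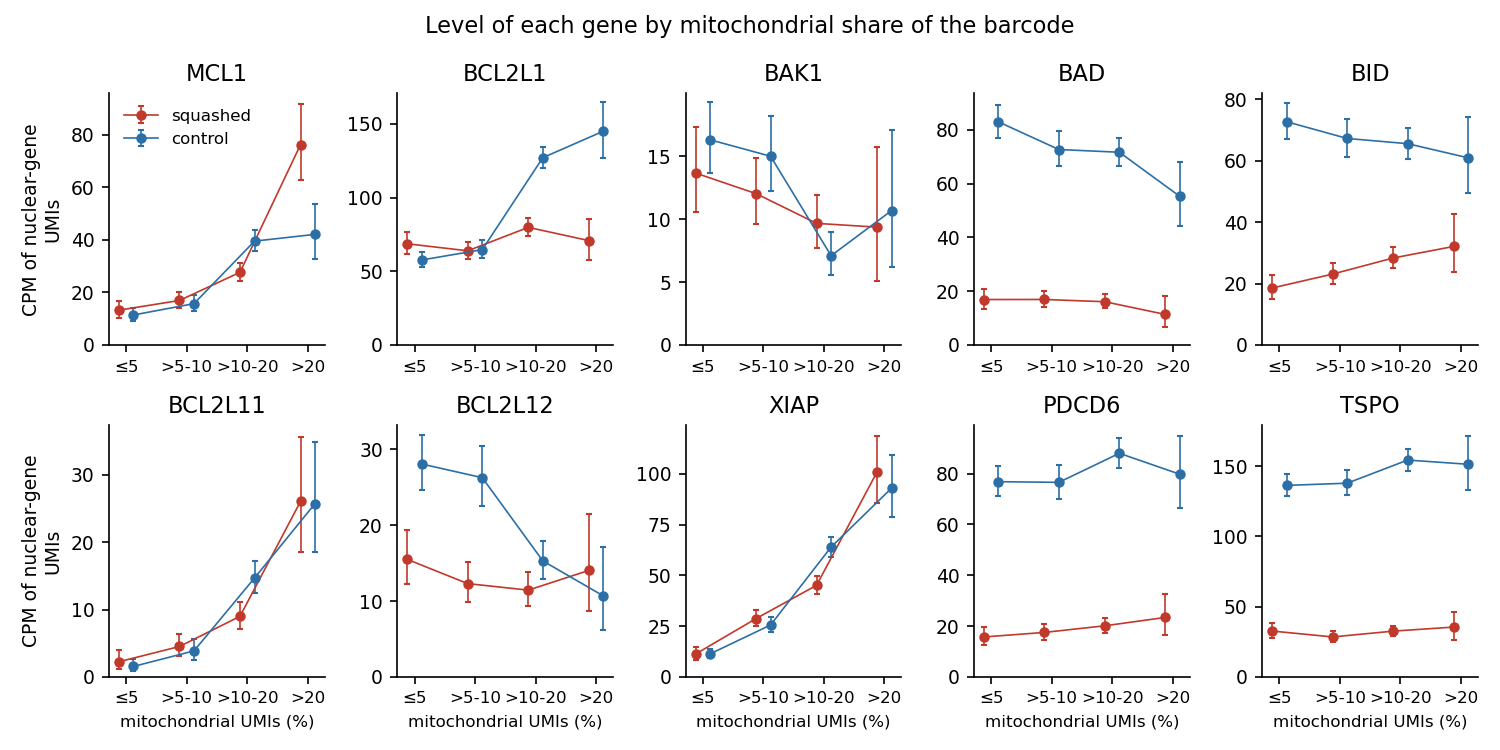
Level of each gene in CPM of nuclear-gene UMIs against the mitochondrial share of the barcode (up to 5, over 5 to 10, over 10 to 20 and over 20%), squashed in red and control in blue, with 95% Poisson intervals. XIAP and BCL2L11 climb in both libraries. Over 10 to 20%, XIAP, BCL2L11, MCL1 and BCL2L1 are lower in squashed barcodes. MCL1 reaches 76.2 CPM in the squashed class over 20% against 42.1 CPM in the control class, and BAD, PDCD6 and TSPO stay apart throughout.

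Of 77 other genes in 12 lists, 42 had at least 20 CPM and are called measured here. In the 8 lists of apoptosis itself 17 of 49 genes were measured, of which BNIP3 was 1.5-fold or more lower and BIRC3 as much higher. In the 4 lists of 14-3-3 proteins, TSPO partners, PDCD6 partners and genes named PDCD 25 of 28 were measured, of which SLC25A4 was that much lower and YWHAE and PDCD11 that much higher. Over all measured genes the shares were 12.4% and 3.48%. BIRC3 passed 20 CPM only through the squashed library and SLC25A4 only through the control library, so the floor favoured both calls. With no floor, 25.8% of all genes lay 1.5-fold or more lower and 16.9% as much higher, by size alone. The share of all genes under 20 CPM that lay so far with an interval that excludes 0 was not computed. Of the 35 listed genes under 20 CPM, 6 lay beyond 1.5-fold with an interval that excludes 0. They were BMF (-1.81, -2.64 to -1.10), the nuclease DFFB (-0.99, -1.76 to -0.30), NAIP (-0.85, -1.68 to -0.09), uncertain because near-identical copies can share its reads, and the kinase RIPK1 (-0.64, -1.05 to -0.24), all lower, and the nuclease ENDOG (0.75, 0.20 to 1.31) and the adaptor TRADD (0.87, 0.23 to 1.54), both higher. The other pro-survival genes had 0 measured of 4, and BCL2 itself had 7 UMIs in the squashed and 3 UMIs in the control library. The effector BAX stood at 158 CPM in squashed cells, against 200 CPM in control cells (-0.34, -0.40 to -0.28), a ratio within 1.5-fold like that of BAK1.

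Of the other BH3-only and BNIP genes 4 of 8 were measured. The mitophagy receptor BNIP3 was 2.13-fold lower, at 21.3 CPM in squashed cells, against 45.3 CPM in control cells (-1.09), while PMAIP1, which encodes the MCL1 ligand NOXA, was at -0.21 and BECN1 of autophagy at -0.12. Below that floor, the BH3-only gene BMF had 19 UMIs in squashed and 80 UMIs in control cells, and BBC3, which encodes PUMA, had 4.24 and 3.68 CPM. Cytochrome c (CYCS) was at 502 CPM in squashed cells, against 553 CPM in control cells (-0.14) and the flavoprotein AIFM1 at 0.15. The executioner CASP6 (0.09) and the nuclease inhibitor DFFA (-0.03) were the measured genes of the caspase list.

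Of the 3 measured inhibitors of apoptosis, BIRC3 was 1.64-fold higher, at 21.0 CPM in squashed cells, against 12.8 CPM in control cells (0.71), BIRC6 was at -0.47 and BIRC5, survivin, at 0.08. The death receptor list had 3 of 12 measured, the receptors TNFRSF1A (0.35) and TNFRSF10B (0.03) and the caspase-8 regulator CFLAR (-0.14). The 14-3-3 proteins, which hold phosphorylated BAD in the cytosol, had all 7 measured and a median of -0.02; YWHAE was 1.55-fold higher, at 819 CPM in squashed cells, against 528 CPM in control cells (0.63), and YWHAQ (-0.41) and YWHAG (-0.36) were within 1.5-fold. The enzymes that ubiquitinate or spare MCL1, HUWE1 (0.14) and USP9X (-0.13), were close.

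Of 8 measured genes with TSPO-binding or channel roles in mitochondria 7 lay within 1.5-fold, with a median of -0.06. The exception was the adenine nucleotide carrier SLC25A4, 2.81-fold lower at 10.8 CPM in squashed cells, against 30.3 CPM in control cells (-1.49), while the channels VDAC2 (-0.28) and VDAC3 (-0.23) were close. All 6 partners of PDCD6 lay within 1.5-fold, with a median of -0.20 and the ratio farthest from 0 in PDCD6IP (-0.57), which encodes ALIX; TSG101 was at -0.22 and ANXA7 at -0.20. Other genes named PDCD had 4 of 6 measured, with PDCD11 1.91-fold higher (0.93), PDCD4 at 0.42 and PDCD5 at -0.26.

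**Figure D5:**
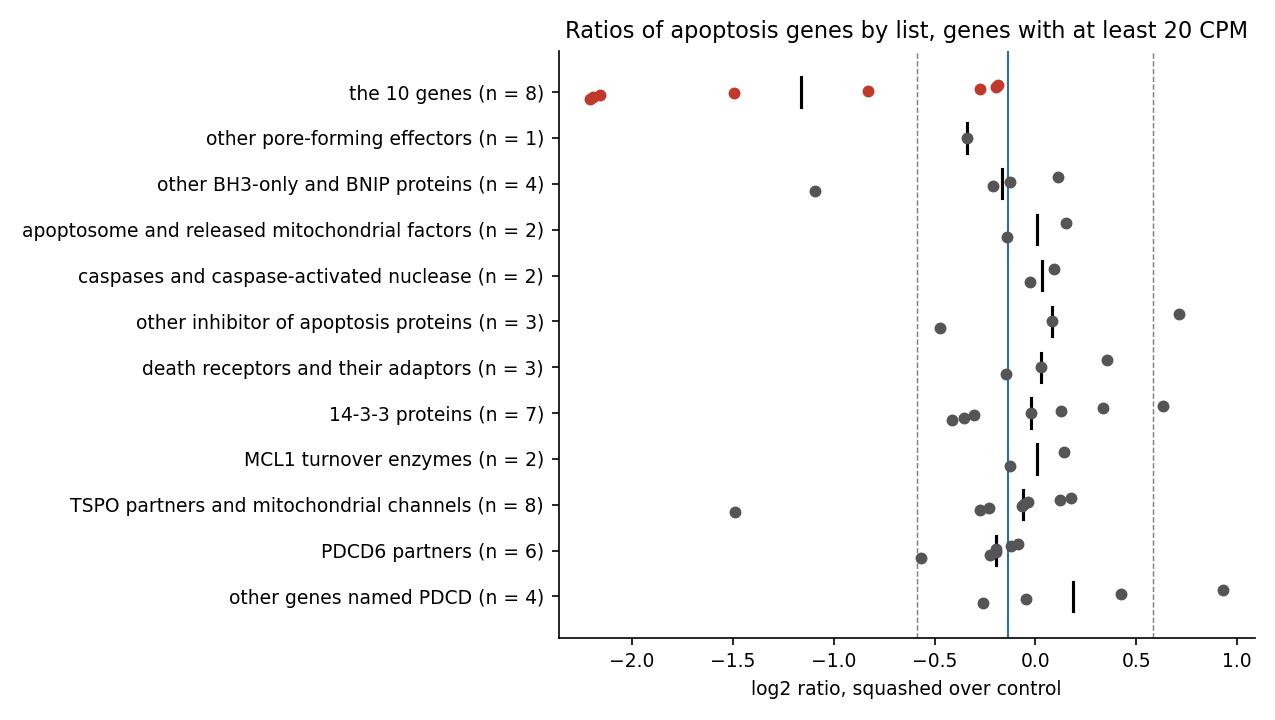
Log2 ratio of squashed over control for genes with at least 20 CPM, by list; black bars are list medians, the blue line is the median of all measured genes (-0.14) and dashed lines mark 1.5-fold. In red are the 8 of the 10 genes with at least 20 CPM. Of these, BAD, PDCD6, BCL2L12 and MCL1 reached that level only in the control library. BNIP3 and SLC25A4 of the other lists, and 12.4% of all measured genes, also lie left of the lower dashed line. SLC25A4 reached 20 CPM only in the control library and BIRC3 only in the squashed library.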

How the data were processed

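Single cells of the A549 line were profiled in 1 squashed and 1 control library with a 10x Genomics Chromium 3.1 kit, per the labels' protocols. The authors deposited raw counts of unique molecular identifiers (UMIs) per gene and barcode, made with Cell Ranger on GRCh38. Its version is 4.0.0 per the file headers and 5.0.1 per the labels' design text. The submitters' processing notes also list R 4.3.2 without saying what for. How barcodes were called cells and how strand was set are not given in the sources used here.

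Cells were kept from 1000 UMIs, 500 genes and up to 20% mitochondrial UMIs. UMIs were summed per library and scaled to CPM, and 0.5 count was added to each sum before the log2 ratio was taken. Intervals are 95% exact intervals (Clopper-Pearson for ratios and shares, Poisson for levels) and cover counting error only. With 1 library per group no test was possible and no p-value is given, so a difference was called by size, at least 1.5-fold. Shares of cells with a UMI used cells thinned to 2000 UMIs. Scrublet in scanpy marked 16 squashed and 16 control cells as doublets, which were kept. States were clustered (scanpy 1.11.5, Leiden resolution 0.5) on cells thinned to 2000 UMIs, each gene centred within its library, without the 10 genes, the 12 lists of related genes and mitochondrial genes. GENCODE 44 (GRCh38) gave each canonical transcript's length and GC content. Software was Python 3.11.15, numpy 2.4.6, scipy 1.17.1 and edgeR 4.0.16 (TMM only) in R 4.3.3. The ratio, its interval and the thinning were tested on simulated data.

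The 10 genes and the lists were chosen with earlier results of these data known. Named genes are the 10, up to 3 genes of each list with the largest absolute ratio, and the 3 genes most like BAD and the 3 most like MCL1. Nearest and overlapping genes were named by position, promoter motifs and genomic windows after the ratios had been seen, and BCL2, BBC3 and the 6 listed genes under 20 CPM beyond 1.5-fold after their values had been seen.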

Additional observations from a re-analysis of the deposited data

Results flagged for a closer look

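MCL1 was flagged among the 10 genes in barcodes that the cell filter leaves out, those with over 20% mitochondrial UMIs. It reached 76.2 CPM of nuclear-gene UMIs (62.9 to 91.5) in 519 squashed barcodes, against 42.1 CPM (32.6 to 53.4) in 270 control barcodes. It was the only one of the 10 genes whose squashed interval lay above its control interval there, and was flagged by that rule. How many of all genes met the rule was not counted, so whether MCL1 is unusual among them is not known. The squashed value rests on 114 UMIs in 90 barcodes with at most 5 UMIs in 1 barcode, and the control value on 67 UMIs in 48 barcodes. Without the 5 barcodes richest in MCL1 of each library, the level was 65.6 CPM in squashed and 35.8 CPM in control barcodes.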

How the results depend on the processing

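Under 13 alternatives 0 of the 10 genes became at least 1.5-fold higher among those measured, and the count at least 1.5-fold lower was 4 or 5, of 7 to 10 measured. The share of all measured genes that low was 12.4% as reported, 8.52% with TMM scaling, 17.7% in thinned cells, 25.8% with no filter on low genes and 5.11% at 2-fold. The count was 4 with all deposited barcodes and with TMM scaling, where BCL2L12 no longer reached 20 CPM in either library, and at 2-fold. TMM scaling moved the median ratio of all measured genes to 0.03. Over 10 alternatives BAD ranged from -2.42 to -2.04, PDCD6 from -2.29 to -2.01, TSPO from -2.41 to -2.06, BID from -1.72 to -1.34 and BCL2L12 from -1.19 to -0.68. With the stricter cell filter, MCL1 (0.23), BCL2L1 (0.14), BCL2L11 (0.63) and XIAP (0.32) were higher in the squashed library, so their direction depends on the cell filter; BCL2L11 then passed 1.5-fold but not 20 CPM. Of the single values per gene (ratios, extremes over states, shares of cells), 100 stayed within the reported counting interval under an alternative and 60 did not. The 60 include every share of cells taken at 5000 UMIs or without thinning, since such shares rise with depth. Of the 10 alternative ratios of each gene, between 7 and 10 stayed within the interval. With 1 library per group no replicate could be left out. No paired analysis was possible because each group holds 1 library. Over all cells BCL2L11 and BAK1 have intervals that span 0. At Leiden resolution 1.0, over 4 states with at least 100 cells per library, BAD lay between -2.31 and -2.07, TSPO between -2.73 and -1.89 and PDCD6 between -2.68 (3 squashed and 29 control UMIs) and -2.01. In 1 of these states MCL1 had 3 squashed and 0 control UMIs and BAK1 0 squashed and 4 control UMIs, too few for a ratio.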
